A study of Mus musculus with 24 samples.

Results

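The 6 genes described here, Lcn2, Saa3, C3, Hp, Slpi and Ptx3, encode secreted proteins of the acute-phase response and of innate defence. They were chosen by symbol: a member was measured where the platform annotation gave a probe set exactly 1 gene symbol equal to its name. By that rule 5 of the 6 were measured, with 1 probe set each, among 12393 genes measured in all. C3 had no such probe set, so no value is given for it. The arrays hold RNA of MLO-Y4 cells, an established mouse line with features of osteocytes, whose labelled strain is a mix of C57B1/6, BALB/c and DBA2. The 24 Affymetrix arrays fall into 8 labelled groups of 3. In the flow groups, labelled 0, 2, 8 and 24 h, cells were exposed for 2 h to fluid flow that oscillated at 1 Hz and reached a shear stress of 10 dyn/cm2, and were collected at once or after that time in fresh medium. In the sham groups of the same 4 times, the cells were kept in static chambers of the same kind. The study calls these controls paired, but does not say which flow array goes with which sham array. The study's methods describe the 2 h collection alone. The arrays of a group are called triplicates, with no word on separate cultures. The p-values therefore reflect only how far the arrays within groups of 3 differ, pooled over the 8 groups, which could be technical.

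Acute-phase proteins are secreted in response to tissue damage or infection, classically by hepatocytes under the control of interleukin 6 and interleukin 1, and many are also made locally by other cells. The cytokines act through STAT3, C/EBP beta and delta and NF-kB, which bind the promoters of these genes. Lcn2 (lipocalin 2) binds bacterial siderophores and so withholds iron, and bone cells are a known source of it in mice. Saa3 is a serum amyloid A made mainly outside the liver in mice, Hp (haptoglobin) binds free haemoglobin, and C3 is the central component of the complement cascade. Slpi inhibits neutrophil elastase and other serine proteases, and Ptx3 is a long pentraxin that recognises microbes and stabilises hyaluronan-rich matrix.

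The promoters of Lcn2 and Saa3 are shown because these genes had the widest ranges among the members and the highest correlation with each other. The sequences are RefSeq's for GRCm38.p6 and run 5′ to 3′ on the gene's strand, from 250 bases before the listed start. Capitals mark matches to the C/EBP motif TTNNGNAA on either strand.
Lcn2: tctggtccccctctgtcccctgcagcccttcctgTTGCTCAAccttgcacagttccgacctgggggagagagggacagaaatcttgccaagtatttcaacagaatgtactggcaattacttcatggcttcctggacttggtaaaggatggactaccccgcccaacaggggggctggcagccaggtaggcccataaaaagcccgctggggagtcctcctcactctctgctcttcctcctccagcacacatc
Saa3: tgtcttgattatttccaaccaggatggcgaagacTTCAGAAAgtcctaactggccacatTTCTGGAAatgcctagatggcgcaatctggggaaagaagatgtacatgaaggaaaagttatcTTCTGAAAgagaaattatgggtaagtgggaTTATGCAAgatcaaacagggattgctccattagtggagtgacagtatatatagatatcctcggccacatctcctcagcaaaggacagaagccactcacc
The Lcn2 sequence lies at chr2:32387740-32387989 on the minus strand, upstream of a gene annotated at chr2:32384637-32387739. The Saa3 sequence lies at chr7:46715677-46715926 on the minus strand, within the gene annotated at chr7:46711998-46719615, because that annotation also holds a start further upstream. Lcn2 held 1 match, 216 bases before the start. Saa3 held 4 matches, at 216, 191, 129 and 99 bases before the start. Promoters were at hand for 5 of the 6 members, but not for Hp. Slpi held 3 matches, Ptx3 1 and C3 4, where the same letters 45 bases before the start of C3 count once on each strand. Of 32851 promoters of the same length, 36.85% held at least 1 match to this motif. No match was found in the 5 promoters to the STAT motif TTCNNNGAA, held by 7.02% of promoters, to the AP-1 motif TGANTCA, held by 6.749%, or to the NF-kB motif, held by 3.899%, on either strand. A match is a description of the letters in this window.

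The deposited values are log2 expression made with RMA, a method that removes background, equalises the distributions of the arrays and summarises each probe set. Levels are therefore relative and are compared here between arrays within a gene. Across genes they are used only with a rough cut at 6. The arrays did not group by their labels alone. The nearest array by correlation carried the same label for 16 of 24 arrays. In a repeat of 8 deposited columns, it lay at the same place for 2 of 24 arrays, and at the same place or its odd-even neighbour for 24 of 24. For 22 of 24 it was the next or the previous column. Arrays of a label stand in adjacent columns, so the count of 16 cannot tell likeness by label from likeness by column. Each member is given by label and by column position, where position 1 stands for columns 1, 9 and 17, position 2 for columns 2, 10 and 18, and so on. No label gives a position a condition, and the positions are not groups of the study. The repeat of 8 columns is given by no label or method of the study and may have been read from these same values. The p-values by position therefore describe this grouping and are no independent test of it. Levels below 6 on every array are called dim here. Of the osteocyte markers Pdpn, Gja1 and Phex lay above 6 on all arrays, whereas Dmp1 (2.66 to 3.0), Sost (4.22 to 4.99), Mepe and Fgf23, which mark mature osteocytes, were dim. Of hepatocyte and leukocyte markers, Alb (4.44 to 4.92), Fgb, Ptprc (3.03 to 3.58) and Adgre1 were dim on all arrays. Not every gene of these lists was dim: 3 of 10 leukocyte and 2 of 9 hepatocyte markers had a mean of at least 6. Cd14, at 7.72 to 8.3, lay above 6 on 24 arrays, Cd3e reached 6 on 18 and Csf1r on 12, and of the hepatocyte markers Ttr reached 6 on 23 and Apoa1 on 18. In such bulk samples, fewer cells of a type and less RNA per cell cannot be told apart.

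Lcn2 varied most. Its log2 level ran from 5.65 to 9.96 over the 24 arrays, a range of 4.31, and 99.96% of genes had a smaller range, while the median gene had a range of 0.516. Saa3 spanned 2.00, Hp 1.66 and Ptx3 1.62, with smaller ranges in 99.17%, 98.43% and 98.34% of genes. Slpi spanned 0.756, wider than for 82.64% of genes. Ptx3 was dim, with a highest value of 5.70, and its range is that of a weak signal. The other 4 members reached 6 on 23 arrays (Lcn2) or on all 24 (Saa3, Hp and Slpi).

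**Figure D1:**
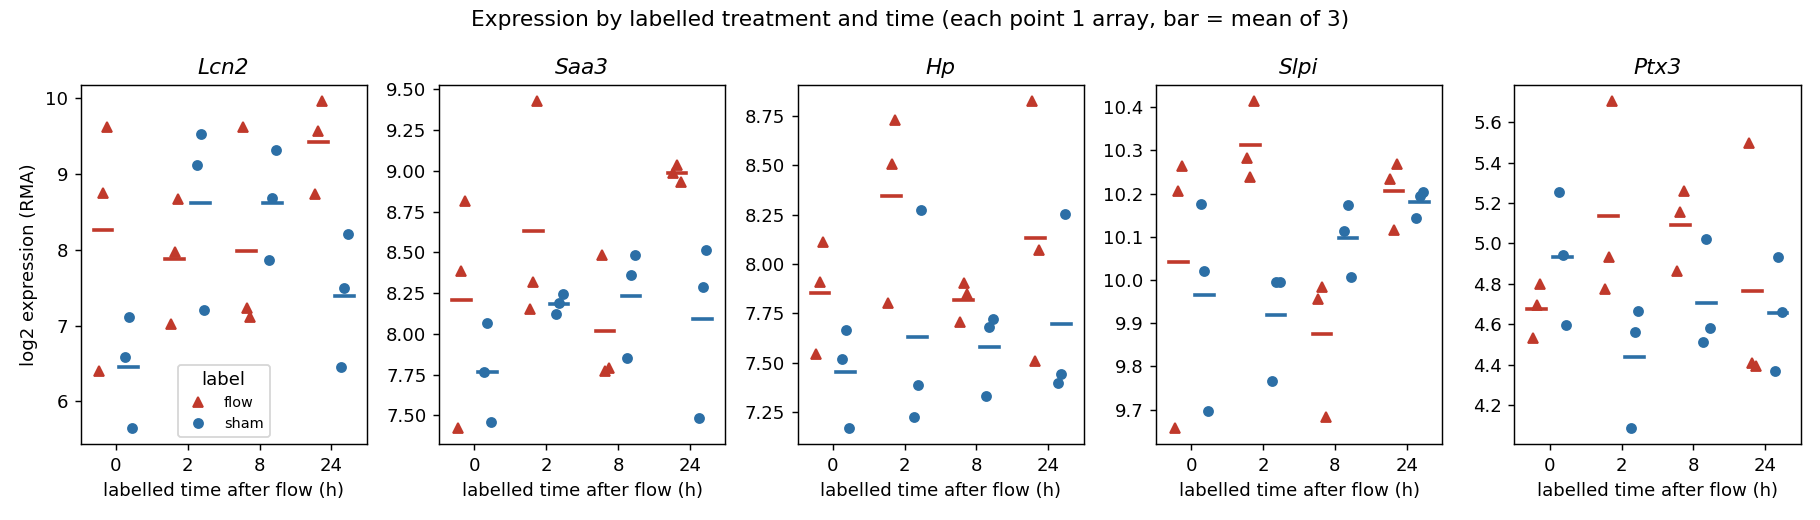
Log2 expression (vertical axis) of the 5 measured members by labelled time (horizontal axis), with red triangles for flow arrays, blue circles for sham arrays and bars for means of 3 arrays. For Lcn2 and Saa3 the 3 flow arrays lie above the 3 sham arrays at 24 h, and at 0 h the groups overlap for all 5 genes.

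By label, Lcn2 was highest in the flow arrays at 24 h and lowest in the sham arrays at 0 h. At 24 h its log2 level was 8.73, 9.57 and 9.96 in flow arrays, against 6.45, 7.50 and 8.21 in sham arrays. All 3 flow arrays lay above all 3 sham arrays, with means of 9.42 ± 0.63 in flow arrays and 7.39 ± 0.89 in sham arrays (SD, n = 3 each). The log2 difference of 2.03 (SE 0.79) did not pass the test over all genes (limma, adjusted p = 0.290). In a repeat of 8 deposited columns, the flow arrays of 24 h stand at places 6, 7 and 8 and the sham arrays at 3, 4 and 5. Those of 0 h stand at 4 to 6 (flow) and 1 to 3 (sham). The arrays of 2 h stand at 2 to 4 (flow) and 7, 8 and 1 (sham), those of 8 h at 8, 1 and 2 (flow) and 5 to 7 (sham). Flow and sham share no place at any of the 4 times, so within a time label and place cannot be told apart for any member. Over the 4 times every place holds arrays of both labels, but no fit held label and place together. With 2 covariates for RNA quality, given further on, the differences of Lcn2 were 0.62 at 24 h and 0.63 at 0 h (adjusted p = 0.914 and 0.875). At 0 h Lcn2 was 6.40, 8.75 and 9.62 in flow arrays, against 5.65, 6.58 and 7.11 in sham arrays. The lowest flow array lay below 2 of the sham arrays, and the difference of 1.81 (SE 0.79) was not called (adjusted p = 0.309). It was 2.74 without flow 0 h replicate 1 and 1.13 without flow 0 h replicate 3. At 2 h Lcn2 was 7.02, 7.97 and 8.67 in flow arrays, against 7.21, 9.12 and 9.53 in sham arrays. At 8 h it was 7.11, 7.23 and 9.63 in flow arrays, against 7.86, 8.68 and 9.32 in sham arrays. At these times the flow mean was the lower one, by differences of -0.74 at 2 h and -0.63 at 8 h (SE 0.79 each, adjusted p = 0.674 and 0.753), and the arrays of both labels overlapped. Leaving out 1 array moved these differences between -1.44 and -0.28 at 2 h and between -1.45 and -0.19 at 8 h. In the order of the 8 group means, from 9.42 (flow, 24 h) to 6.45 (sham, 0 h), every pair of neighbours overlapped.

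Saa3 had the least spread in the flow group at 24 h, with 8.93, 8.99 and 9.04 in flow arrays, against 7.48, 8.29 and 8.51 in sham arrays. The groups did not overlap, and the log2 difference of 0.89 (SE 0.34) was not called over all genes (adjusted p = 0.291). At 2 h Saa3 was 8.15, 8.32 and 9.43 in flow arrays, against 8.12, 8.19 and 8.25 in sham arrays. A single flow array, at 9.43, was the highest of all 24 for this gene, and the groups overlapped (difference 0.45, SE 0.34, adjusted p = 0.531). Without that array, flow 2 h replicate 3, the difference was 0.0488. At 0 h the difference was 0.45 (adjusted p = 0.581) and at 8 h -0.21 (adjusted p = 0.814), with overlapping arrays.

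Hp was higher on average in flow arrays at every labelled time, and at none did the groups separate. At 2 h its log2 level was 7.80, 8.51 and 8.73 in flow arrays, against 7.23, 7.39 and 8.27 in sham arrays. The difference of 0.72 (SE 0.31, adjusted p = 0.345) was its largest, beside 0.40 at 0 h, 0.24 at 8 h and 0.44 at 24 h (adjusted p = 0.590, 0.760 and 0.497). Without flow 24 h replicate 1 the difference at 24 h was 0.0916, and without sham 8 h replicate 1 that at 8 h was 0.12.

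At 2 h the flow and sham arrays did not overlap for Slpi and for Ptx3. Slpi was 10.24, 10.28 and 10.41 in flow arrays, against 9.77, 9.99 and 10.00 in sham arrays, a log2 difference of 0.39 (SE 0.13, adjusted p = 0.345). At 8 h Slpi lay the other way, at 9.68, 9.96 and 9.98 in flow arrays, against 10.01, 10.11 and 10.17 in sham arrays, a difference of -0.22 (SE 0.13, adjusted p = 0.451). The groups did not overlap at either time, and neither difference was called. The differences of Slpi were 0.08 at 0 h and 0.03 at 24 h (adjusted p = 0.842 and 0.945). The dim Ptx3 was 4.77, 4.93 and 5.70 in flow arrays at 2 h, against 4.09, 4.56 and 4.67 in sham arrays. Its difference was 0.70 at 2 h (SE 0.27, adjusted p = 0.345), and -0.26, 0.39 and 0.11 at 0, 8 and 24 h (adjusted p = 0.705, 0.528 and 0.870).

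**Figure D2:**
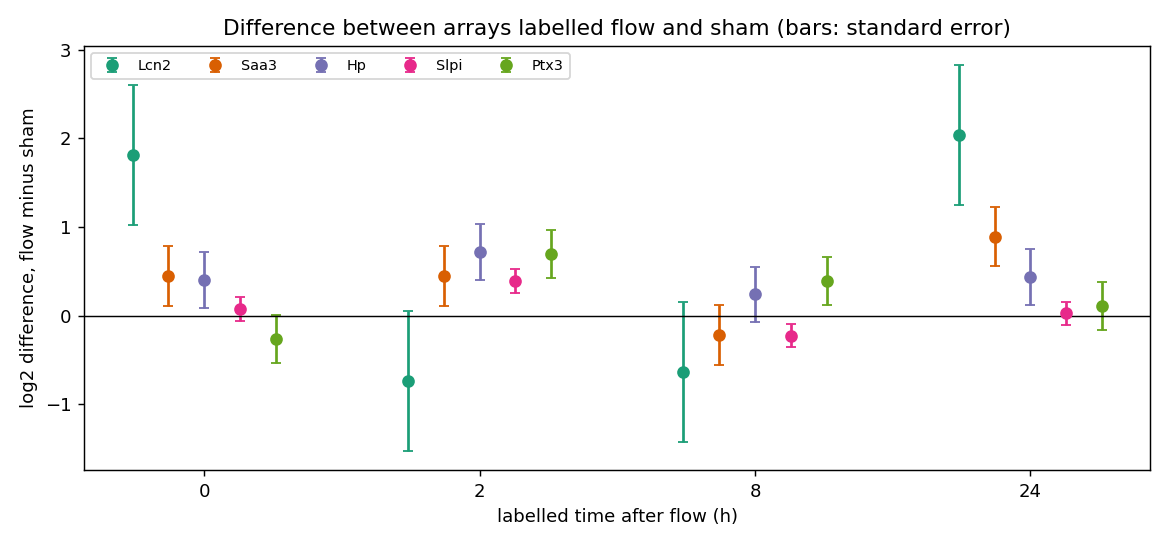
Log2 difference, flow minus sham (vertical axis), of each member at each labelled time (horizontal axis), with bars for the standard error of the fit over all 24 arrays. The largest are those of Lcn2, 1.81 at 0 h and 2.03 at 24 h, and its differences at 2 h and 8 h lie below 0.

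Over the 5 measured members, 0 were called between flow and sham at each time by limma, and the same was true of all 12393 genes (0.0% called at 0, 2, 8 and 24 h). At an unadjusted p under 0.05 there were 1 member and 1729 genes at 0 h, 3 members and 1681 genes at 2 h, 0 members and 1781 genes at 8 h, and 2 members and 1921 genes at 24 h. Groups without overlap were found for 0 members at 0 h (background 19.1% of genes), 2 at 2 h (18.4%), 1 at 8 h (12.9%) and 2 at 24 h (19.8%). Flow was higher on average for 4, 4, 2 and 5 of the 5 members at 0, 2, 8 and 24 h, with median differences of 0.40, 0.45, -0.21 and 0.44. Of all genes, 53.07%, 50.49%, 52.63% and 54.4% were higher on average in flow arrays at these times. Over all genes the medians were 0.01, 0.00, 0.01 and 0.01, where differences of either sign cancel. The medians of the absolute differences were 0.09, 0.10, 0.09 and 0.10. All 5 members also had a wider range over the arrays than most genes. With 5 genes that correlate with each other, this is a description.

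The joint tests called no member. A moderated F-test of flow against sham over the 4 times called 0 members and 0.0% of genes, with adjusted p-values of the members between 0.177 (Lcn2) and 0.270 (Hp). The test of whether the difference varied between times called 0 members and 0.0% of genes, with adjusted p-values between 0.145 (Lcn2) and 0.853 (Hp). Any difference among the 8 labelled groups was called for 82 genes (0.662%) and for 0 members, whose adjusted p-values ran from 0.216 (Slpi) to 0.410 (Ptx3). Array weights, which give less weight to arrays far from the mean of their own label, changed these calls. With them Lcn2 was called at 0 h (difference 2.34, adjusted p = 0.00623) and Lcn2 and Saa3 at 24 h (2.48 and 1.08, adjusted p = 0.00741 and 0.0129), along with 2330 and 2361 genes. Without flow 0 h replicate 1, the difference between times was called for Lcn2 and Slpi (adjusted p = 0.0483 and 0.0422), along with 1027 genes in all. Without flow 8 h replicate 1 it was called for Lcn2 (0.0419), along with 2045 genes in all.

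**Figure D3:**
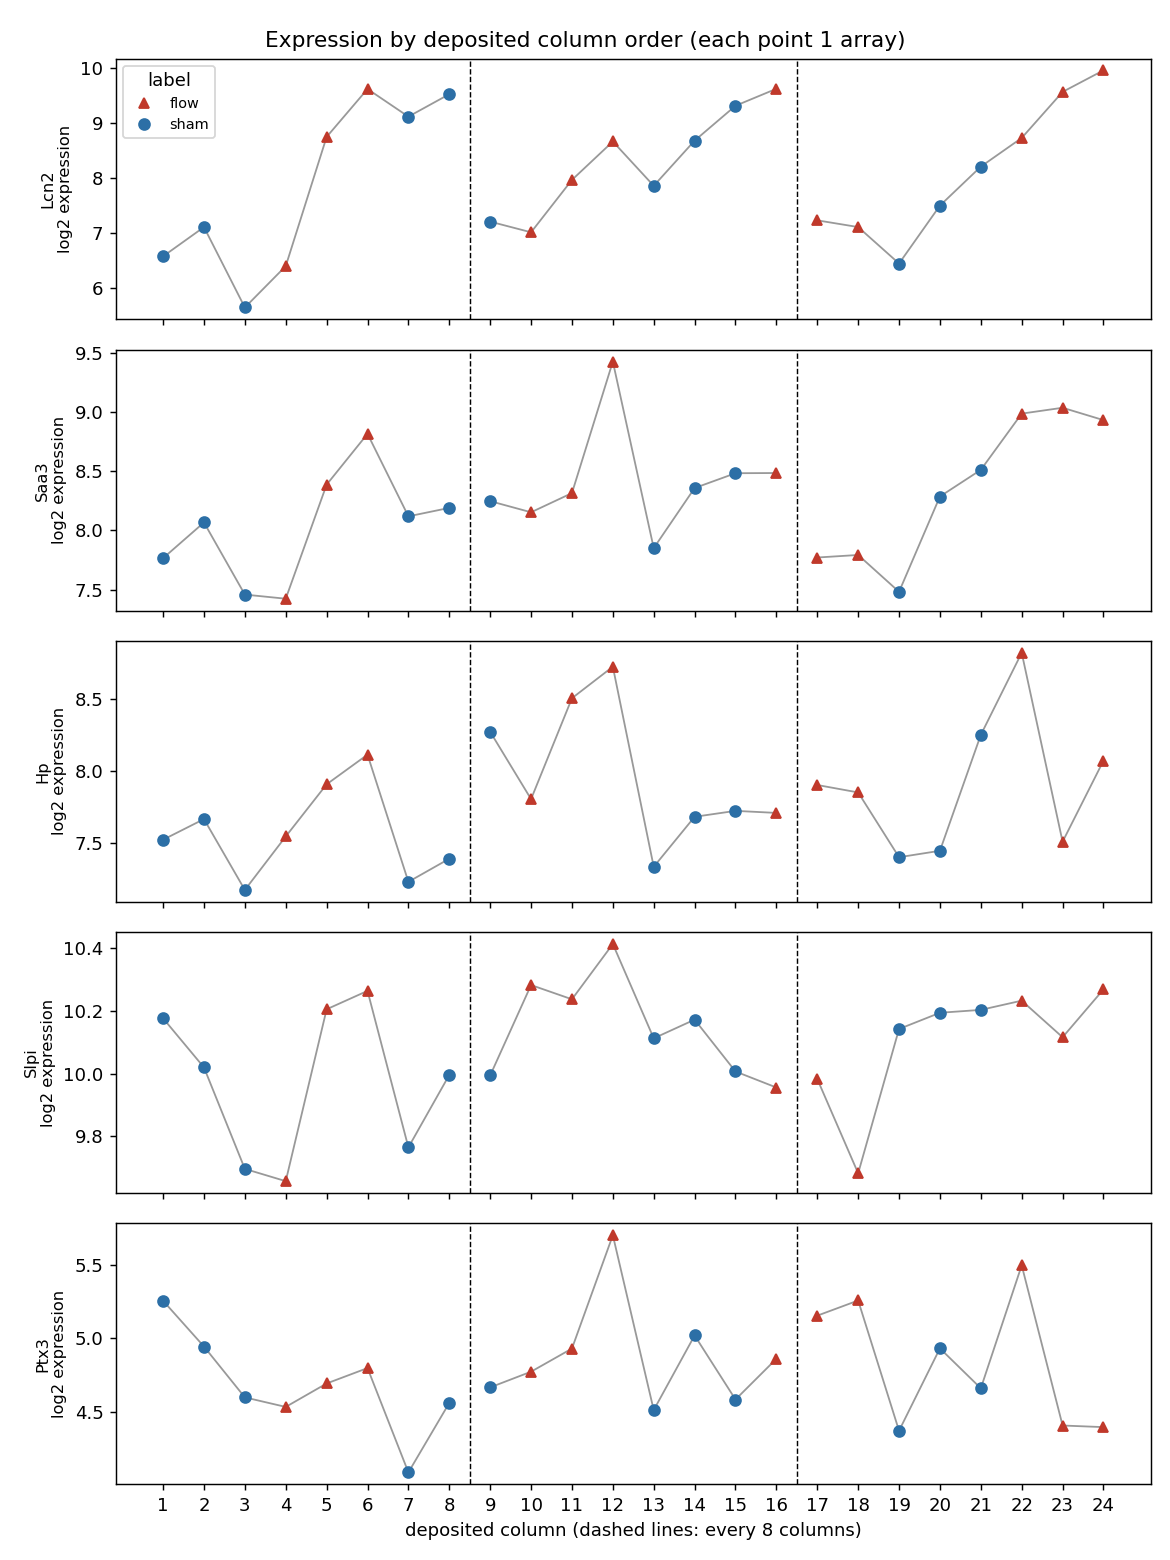
Log2 expression (vertical axis) of the 5 measured members in the deposited order of the 24 columns (horizontal axis), with red triangles for flow arrays, blue circles for sham arrays, and dashed lines after every 8 columns. In each of the 3 runs of 8 columns Lcn2 lies low in the first columns and high in the last, with 9.53, 9.63 and 9.96 in columns 8, 16 and 24.

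Set by column position, the 3 arrays of a set lay closer together on average for Lcn2 than those of a label. Its log2 level at position 8 was 9.53, 9.63 and 9.96, and at position 7 it was 9.12, 9.32 and 9.57. At position 1 it was 6.58, 7.21 and 7.23, and at position 2 it was 7.02, 7.11 and 7.11. The 6 arrays of positions 7 and 8 carry the labels sham 2 h, sham 8 h, flow 8 h and flow 24 h, and they lay between 9.12 and 9.96, above the highest array of positions 1 to 4, at 8.67. Positions 3 and 4 spread more, between 5.65 and 8.67, and positions 5 and 6 ran from 7.86 to 9.62. The position means were 7.01 ± 0.37, 7.08 ± 0.05, 6.69 ± 1.18, 7.52 ± 1.13, 8.27 ± 0.45, 9.01 ± 0.53, 9.34 ± 0.23 and 9.70 ± 0.23 at positions 1 to 8 (SD, n = 3 each). Neighbouring positions in the order of these means overlapped.

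A difference among the 8 positions was called for Lcn2 (limma, adjusted p = 9.39e-05), beside 33.5% of all genes, and for 1 of the 5 members. As the grouping may come from these values, the call is a description. The pooled SD of Lcn2 within a set of 3 arrays was 0.652 by position and 1.08 by label. Ptx3 (adjusted p = 0.0988), Saa3 (0.259), Hp (0.780) and Slpi (0.851) were not called. Ptx3 was called, however, without flow 0 h replicate 1 (0.0265) or without flow 2 h replicate 3 (0.0442). Leaving out each array in turn called 3738 to 4394 of all genes by position. With 2 covariates for RNA quality, the 3′ minus 5′ log2 signal of the control probe sets for beta-actin and for Gapdh, Lcn2 was not called (adjusted p = 0.153) and 1182 genes were. The beta-actin difference averaged 0.245 and 0.237 at positions 7 and 8, and between 0.161 and 0.215 at positions 1 to 6. For Gapdh the averages were -0.161 and -0.175 at positions 7 and 8, and between -0.168 and -0.111 at positions 1 to 6. The beta-actin difference also moved with the labels, with 0.237 in flow and 0.174 in sham arrays at 24 h, and 0.156 in flow and 0.232 in sham arrays at 2 h. Its part in the level of Lcn2 was not tested.

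Between odd and even neighbours no difference of a member was called. Even minus odd, the log2 difference of Lcn2 was 0.07, 0.83, 0.74 and 0.37 for positions 2 and 1, 4 and 3, 6 and 5, and 8 and 7. For Saa3 it was 0.08, 0.63, 0.47 and -0.01, and for Slpi no more than 0.11 in size. For Ptx3 it was -0.03, 0.42, 0.48 and 0.25, and for Hp -0.13, 0.21, 0.38 and 0.24. None of the members was called in any of the 4 pairs, where 0.0%, 0.00807% (1 gene), 0.0% and 0.0% of genes were called by limma.

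**Figure D4:**
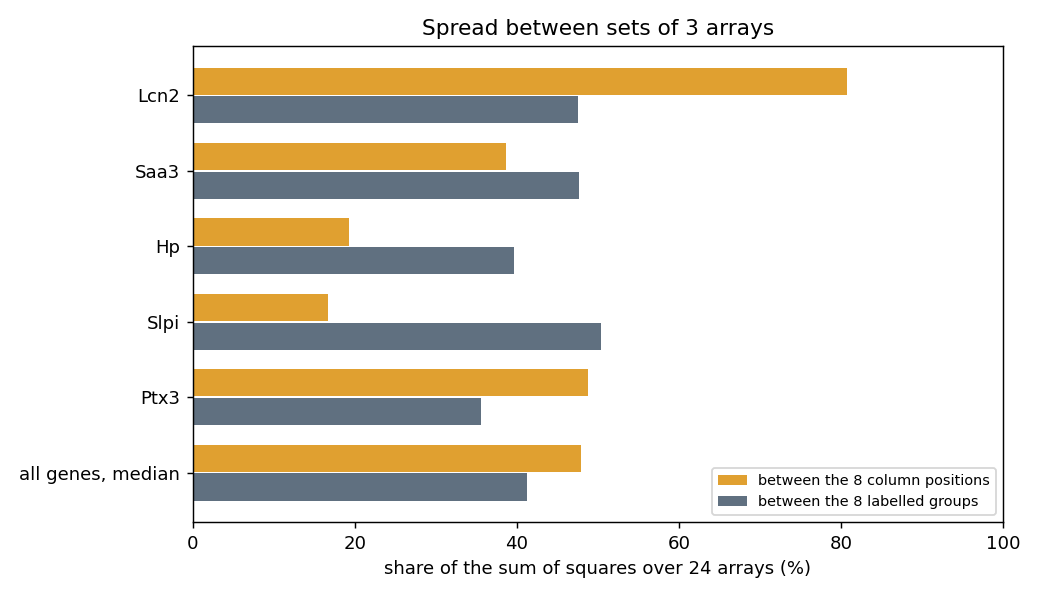
Share of the sum of squares over 24 arrays (horizontal axis, %) that lies between the 8 column positions (orange) and between the 8 labelled groups (grey), for each member and as the median of all genes. Lcn2 has 80.78% between positions and 47.59% between labels, whereas Slpi has 16.69% and 50.42%.

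The members differed in how their spread was divided. Of the sum of squares of Lcn2, 80.78% lay between positions and 47.59% between labels, and 89.14% of genes had a smaller share between positions. The shares for Slpi were 16.69% between positions and 50.42% between labels, and for Hp 19.27% and 39.61%. For Slpi only 5.6% of genes, and for Hp 8.424%, had a smaller share between positions. Saa3 had 38.71% between positions and 47.64% between labels, and Ptx3 48.74% and 35.61%. The medians of all genes were 47.90% between positions and 41.26% between labels. For the 7684 genes with a mean of at least 6, among them Lcn2, Saa3, Hp and Slpi, they were 60.31% and 45.62%. Of all genes, 65.47% had a larger share between positions than between labels. Between the 3 runs of 8 columns lay 15.91% for Hp, 13.59% for Slpi, 10.82% for Saa3, 5.14% for Ptx3 and 2.29% for Lcn2, against a median of 6.45%.

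Over the 24 arrays Lcn2 and Saa3 had the highest correlation among the members (Pearson r = 0.775), followed by Saa3 with Slpi (0.649), Saa3 with Hp (0.637) and Hp with Ptx3 (0.6). The lowest was that of Lcn2 with Ptx3 (r = -0.129). These are descriptions over arrays that share labels and column positions. Among 7680 genes with a mean of at least 6, the pattern most like that of Lcn2 was found in Taf7l (r = 0.947), Car6 (0.943), Canx (0.942), Ghitm (0.941) and Scmh1 (0.938). Canx encodes calnexin, a chaperone of the endoplasmic reticulum, and Car6 a secreted carbonic anhydrase. The nearest to Saa3 were Ikbke (0.831), a kinase of innate immune signalling, and Cxcl9 (0.808), an interferon-induced chemokine, then Erap1, Sel1l and Eprs (0.761 to 0.750). For Hp they were Trp53inp2 (0.875), the inflammatory caspase gene Casp4 (0.797), Emc2 (0.776), Cd47 (0.763) and Cxcl9 (0.737). For Slpi they were Map3k20 (0.718), Got1 (0.693), Dpf2 (0.627), Abcb1b (0.610) and Polr3e (0.609), and for Ptx3 the collagenase gene Mmp13 (0.705), H2ac19 (0.701), A4galt (0.698), Trp53inp2 (0.678) and Ahnak (0.673).

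Genes that act with the members were read from lists. In the fit over all 24 arrays with equal weights, no gene of a list was called between flow and sham or among the labelled groups, and calls of list genes under the alternatives are not given. Of the upstream cytokines and transcriptional regulators, 26 of 28 were measured and 16 of these were called by position, where 33.5% of all genes were. Of the 22 with a mean of at least 6, 16 were called, beside 49.05% of all genes at that level. The lists were chosen with earlier results of these data known, so the shares of a list called by position, here and below, are descriptions. Nfkbia, which encodes the inhibitor of NF-kB that is itself an NF-kB target, had position means of 12.15, 12.37, 11.84 and 12.18 at positions 1 to 4, and of 11.16, 11.25, 10.82 and 10.76 at positions 5 to 8 (adjusted p = 1.87e-08). Zc3h12a, which encodes an RNase that degrades cytokine transcripts, Relb and Nfkb2, both NF-kB subunit genes, Socs3, a feedback inhibitor of STAT3 signalling, and Stat3 were also called (adjusted p = 2.22e-06, 1.11e-05, 1.48e-05, 0.000296 and 0.00126). Cebpb was called as well (0.00378), Cebpd was not (0.0627). Il6, at 5.2 to 8.62, was not called either (0.144), nor were Rela (0.149) and the dim Il1a and Il1b (0.910 and 0.430). Nfkbia had its lower position means where Lcn2 had its higher ones (r = -0.787 over 24 arrays). Of the 16, 14 had a negative r with Lcn2, while Osmr, a receptor for oncostatin M (0.687), and Cebpb (0.424) had a positive one. Lcn2 and these genes were all called by position, and the share of negative r among all genes so called is not given here. The count is thus a description and no result about this list.

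**Figure D5:**
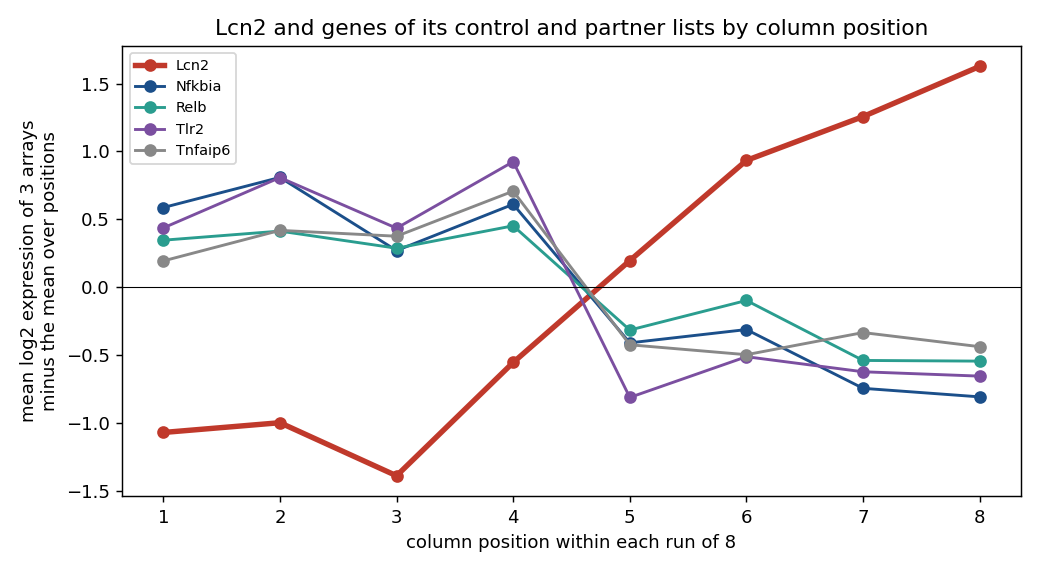
Mean log2 expression of 3 arrays at each column position minus the mean over positions (vertical axis), for Lcn2 and for 4 genes of the lists (horizontal axis: position 1 to 8). Lcn2 lies above its mean at positions 5 to 8, and Nfkbia, Relb, Tlr2 and Tnfaip6 lie below theirs there. These 4 were chosen after their values were seen, and other list genes called by position, such as Cr1l (r = 0.853) and Tlr4 (0.536), ran with Lcn2.

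Of the receptors and binding partners of the members, 20 of 21 were measured and 7 were called by position, a share of 35.0% that is near the 33.5% of all genes. Of the 8 with a mean of at least 6, 6 were called, beside 49.05% of all genes at that level. Of the 7, Tlr4 had a positive r with Lcn2 (0.536) and the other 6 a negative one, again without a share over all genes. Tlr2, a receptor reported to sense serum amyloid A, averaged 10.06 to 10.55 at positions 1 to 4 and 8.81 to 9.11 at positions 5 to 8 (adjusted p = 7.13e-07). Itgb2, the beta chain of the complement receptor for C3 fragments (1.79e-06), and Tnfaip6, which binds Ptx3 in hyaluronan matrix (4.77e-05), were also called, as were Plscr1, Has2, Tlr4 and Anxa2 (0.0003, 0.0125, 0.0216 and 0.0242). Anxa2 and Plscr1 encode proteins that bind human SLPI at the cell surface, and Has2 makes hyaluronan. The Lcn2 receptor gene Slc22a17 (5.64 to 6.03) and the haptoglobin receptor gene Cd163 (2.74 to 3.28) were not called. Among 21 of 28 complement genes measured, Masp1, Cd59a, Cr1l and Cfb were called by position (0.000804, 0.00357, 0.0132 and 0.0246), a share of 19.05%. Of the 5 complement genes with a mean of at least 6, 3 were called. Cr1l, Cd59a and Cfb had a positive r with Lcn2 (0.853, 0.731 and 0.719) and Masp1 a negative one (-0.756). Of 25 of 28 other acute-phase genes measured 1 was called (4.0%), Serpina3n (0.0085), an inhibitor of serine proteases, whose position means ran from 6.46 at position 2 to 5.91 at position 8. Only 4 of the 25 had a mean of at least 6, and Serpina3n was the 1 called among these 4. Of 18 of 20 genes for protease partners and other antimicrobial proteins 1 was called, the dim Lyz1, and none of the 18 had a mean of at least 6. Of hepatocyte, leukocyte and epithelial markers 0 of 9, 0 of 10 and 0 of 7 were called by position. Of the osteocyte and osteoblast markers 4 of 12 were called, a share of 33.33%, and 3 of the 4 with a mean of at least 6. The 4 markers called were Col1a1 (adjusted p = 8.77e-06, r with Lcn2 -0.858), Phex (0.000132, r = 0.381), Pdpn (0.00328, r = -0.654) and the dim Tnfrsf11b (0.00464, r = -0.654). Their part in the level of Lcn2 was not tested.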

How the data were processed

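Each of the 8 labelled groups of MLO-Y4 cells had 3 Affymetrix arrays. The authors deposited log2 expression values. The submitters' processing notes name RMA, whose version is not given in the sources used here, and the values were used as they are. Arrays carry no counts, and their number limits the precision. Of 22690 probe sets, 20380 carried 1 gene symbol in the platform annotation, 691 several and 1555 none, and 64 were controls. Where several probe sets measured a gene (4956 genes), the one with the highest mean was used. No column was without a sample.

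A model with 1 mean per labelled group, and a second with 1 mean per column position, were fitted over 12393 genes with limma 3.58.1 in R 4.3.3, with Benjamini-Hochberg adjustment over all genes and calls at an adjusted p under 0.05. The model was tested on simulated data. No arrays held identical values. Named genes were the members, in each list the 3 genes with the smallest p over the 4 times and the 3 with the smallest p by position (mean of at least 6), the 5 genes most correlated with each member, and markers. Other list genes named, such as Socs3, Osmr, Cebpb, Cebpd, Il6, Il1a, Il1b, Rela, Slc22a17, Cd163, Plscr1, Has2, Tlr4, Anxa2, Cfb and Lyz1, were chosen after their values were seen. The members and lists were chosen with earlier results of these data known. Alternatives were a replicate block, array weights, trended and robust moderation, a repeat of quantile normalization, median centring, leaving out dim genes (those not reaching 6 on 3 arrays), the mean of all probe sets, control probe set covariates, the 6 arrays of a time alone, a block of the runs of 8 columns, and leaving out each array in turn.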

Additional observations from a re-analysis of the deposited data

How the results depend on the processing

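Apart from the settings named here, the alternatives kept every call and direction of the members. Array weights, in which the spread within a label sets the weight of an array, called 2330, 2312, 3151 and 2361 genes at 0, 2, 8 and 24 h, with 1, 3 and 2 members at 0, 2 and 24 h (Hp, Slpi and Ptx3 at 2 h), and turned Ptx3 at 24 h to -0.0726. They called 6024 genes and 5 members over the 4 times, 5955 and 4 between times, and 6828 and 5 among the labelled groups. Control probe set covariates called 1182 genes and 0 members by position and 0 genes for position 4 minus 3, reduced Lcn2 to 0.63 at 0 h and 0.62 at 24 h, and reversed Lcn2 at 2 h (0.90) and 8 h (0.0482), Ptx3 at 0 h (0.15), Hp at 8 h (-0.0663) and Slpi at 24 h (-0.0196). The same covariates raised Hp to 0.88 at 0 h and 0.72 at 24 h, and Saa3 to 0.72 at 2 h. They lowered Hp at 2 h (0.41) and Saa3 at 0 h (0.34) and 24 h (0.66), and none of these was called. At 2 h, quantile normalization again and the mean of all probe sets each called 1 gene and median centring 2. Centring turned Slpi at 24 h to -0.0470, and quantile normalization again turned Saa3 for position 8 minus 7 to 0.0176. The block of runs called 0 genes for position 4 minus 3. The cause was not tested. The dim filter left out Ptx3.

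With the replicate block, 40 genes were called among the labelled groups and no call of a member changed. Same-numbered flow and sham arrays of a time deviated from their group means with correlations of -0.346 to 0.192, over 0.1 in 2 of 12 pairs, and 1 of 12 flow arrays correlated best with its own number, so the numbers were not taken to pair the arrays, although the study calls the sham controls paired.

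Leaving out each array in turn gave 0 to 1 genes called at 0 h, 0 to 117 at 2 h (117 without sham 2 h replicate 3), 0 to 672 at 8 h (672 without flow 8 h replicate 1, 301 without sham 8 h replicate 3) and 0 to 278 at 24 h (278 without sham 24 h replicate 3). It gave 0 to 1394 genes over the 4 times (1394, 689, 396 and 96 without flow 8 h replicate 1, sham 2 h replicate 3, sham 24 h replicate 3 and sham 8 h replicate 3) and 0 to 2045 between times (2045, 1708, 976 and 495 without the same arrays, 1027 without flow 0 h replicate 1). Between times 0 to 2 members were called (2 without flow 0 h replicate 1), and 23 to 867 genes among the labelled groups (23 without flow 24 h replicate 3, 867 without flow 8 h replicate 1). By position it gave 1 to 2 members (2 without flow 0 h replicate 1 or flow 2 h replicate 3), 0 to 5 genes for position 2 minus 1 (5 without flow 2 h replicate 1) and 0 to 8 for position 4 minus 3 (8 without flow 0 h replicate 1). Of the 20 flow minus sham differences of the members, 16 moved by over 1.5 times without some array. Differences that changed sign ran from -0.0560 to 0.27 (Slpi, 0 h), from -0.0055 to 0.0707 (Slpi, 24 h) and from -0.25 to 0.30 (Ptx3, 24 h). For position 2 minus 1 they ran from -0.14 to 0.18 (Lcn2), from -0.0049 to 0.24 (Saa3), from -0.32 to 0.0616 (Hp), from -0.20 to 0.10 (Slpi) and from -0.21 to 0.0815 (Ptx3). For position 4 minus 3 they ran from -0.20 to 0.62 (Hp) and from -0.10 to 0.28 (Slpi), and for position 8 minus 7 from -0.22 to 0.23 (Saa3).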
